A study of Zea mays with 12 samples.

Results

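The genes described here are the MYB and MYB-related transcription factors of maize, together with the other genes whose deposited family label or name places them among proteins with a MYB-type DNA-binding domain. A gene was taken when its family label contained MYB or its name began with MYB, which held for 329 of the 55529 genes in the table, and it was kept when it had at least 10 counts over the 12 libraries. This left 225 genes, among 34385 genes of the whole table that reached the same minimum. Of the 104 genes left out, 67 had 0 counts in every library, and the total nearest the minimum was 9 counts among those left out and 10 counts among those kept. By their names, 102 of the 225 genes were MYB, 70 were MYB-related, 33 were G2-like or ARR-B and 20 carried another name or none. The family label is broader than the classical regulators, since it also took in subunits of chromatin-remodelling complexes and proteins with a bromodomain.

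MYB proteins bind DNA through repeats of a helix-turn-helix fold. Proteins with a pair of such repeats, the R2R3 type, form one of the largest families of plant transcription factors and regulate phenylpropanoid and anthocyanin synthesis, cell identity, cuticle formation and responses to abscisic acid and abiotic stress. Proteins with a single repeat include core parts of the circadian clock and proteins that bind telomeres, and proteins with 3 repeats act on the cell cycle. In germinating cereal grain the GAMYB proteins, which act downstream of gibberellin, switch on alpha-amylase genes in the aleurone.

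The libraries came from whole maize seeds in 4 groups of 3, and the study asked how loss of ZmEREB92, an AP2/ERF-type transcription factor, changes the transcriptome of the imbibing seed. The group ereb92_6h held seeds of the CRISPR/Cas9 mutant line *ereb92-6* at 6 hours after imbibition (HAI), and ereb92_0h held dry seeds of this line at 0 HAI. KN5585_6h and KN5585_0h held seeds of KN5585, the inbred line in which the mutant was made, at the same times. Per the labels, imbibition took place on wet filter paper at 28 °C in the dark. The mutant is represented by a single edited line, and embryo, endosperm and seed coat were not separated. In such bulk samples a change in the share of a tissue and a change of RNA per cell cannot be told apart.

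The libraries held between 12771663 and 15383586 counts, and 3 counts, the floor used here, corresponded to between 0.181 and 0.281 CPM, that is, counts scaled by TMM to a common library size. Replicate 1 of KN5585_6h stood apart, with counts for 23104 genes and 131 members of the MYB set, against between 27689 and 32080 genes and between 176 and 200 members in the other 11 libraries. *ZmEREB92* (Zm00001d000339) had 4146, 3115 and 895 counts in the libraries labelled ereb92_6h, against 126, 17 and 82 in ereb92_0h, 205, 71 and 374 in KN5585_6h and 96, 25 and 27 in KN5585_0h. The mutated gene was thus highest in the libraries that carry the mutant label at 6 HAI, and its transcript level does not check that label. According to the study, the B73 RefGen_v4 genome, to which the reads were aligned, lacks an assembled copy of *ZmEREB92*. Whether the reads assigned to Zm00001d000339 came from *ZmEREB92* was not tested. Each direction given below for ereb92_6h is a direction for the libraries labelled so. The reference gene *ZmEF1a* (Zm00001d009870) lay between 253 and 358 CPM in all 12 libraries. Oleosin transcripts, which mark oil-storing embryo and aleurone cells, summed to between 12590 and 27330 CPM in ereb92_6h, 23320 and 54650 CPM in ereb92_0h, 12280 and 48010 CPM in KN5585_6h and 32490 and 59940 CPM in KN5585_0h. Zein transcripts, which mark the starchy endosperm, summed to between 10.5 and 85.4 CPM in ereb92_6h, 49.7 and 111 CPM in ereb92_0h, 23.1 and 102 CPM in KN5585_6h and 130 and 581 CPM in KN5585_0h, without overlap between the dry-seed groups. Globulin, vicilin and cupin transcripts, taken as embryo storage, summed to between 13310 and 48230 CPM in ereb92_6h and 14160 and 76880 CPM in ereb92_0h. They summed to between 29070 and 59080 CPM in KN5585_6h and 20440 and 29960 CPM in KN5585_0h, and these ranges overlapped. Photosynthesis transcripts summed to between 104 and 282 CPM. Late-embryogenesis-abundant (LEA) and dehydrin transcripts summed to between 17600 and 29140 CPM in ereb92_6h, 29240 and 48450 CPM in ereb92_0h, 21910 and 36060 CPM in KN5585_6h and 37060 and 68040 CPM in KN5585_0h. The LEA and dehydrin median was lowest in ereb92_6h, at 24010 CPM, with a range that overlapped KN5585_6h. The part of these marker transcripts in the results was not tested.

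Most of the MYB set was present at low level in the seed. By the deposited FPKM values, which divide counts by gene length and library size, the median of the members' means was 1.57 FPKM, 128 of the 225 members averaged at least 1 FPKM and 37 averaged at least 10 FPKM. The 10 members with the highest means held 45.7% of the summed level. MYB-related genes had the highest class median at 3.99 FPKM, with 52 of 70 members at 1 FPKM or more, while the MYB class had a median of 0.736 FPKM and 48 of 102 members at that level. Counts were present in all 12 libraries for 116 members.

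The highest level belonged to MYB-transcription factor 133 (Zm00001d001837), described only as a homeodomain-like protein, with 90.7, 154 and 117 FPKM in ereb92_6h, 147, 190 and 162 FPKM in ereb92_0h, 191, 178 and 247 FPKM in KN5585_6h and 190, 122 and 149 FPKM in KN5585_0h. The groups overlapped except that every KN5585_6h library lay above every ereb92_6h library, and no comparison passed the test. MYB-related-transcription factor 40 (Zm00001d013777) had 244, 194 and 187 FPKM in ereb92_6h, 139, 109 and 116 FPKM in ereb92_0h, 126, 124 and 222 FPKM in KN5585_6h and 121, 128 and 140 FPKM in KN5585_0h. Its ereb92_6h libraries lay above all dry-seed libraries but overlapped with KN5585_6h, and the log2 fold change of 0.77 in ereb92_6h vs ereb92_0h did not pass (adjusted p = 0.0965, edgeR's quasi-likelihood test). The third place was held by Zm00001d041960, described as LUX, a component of the evening complex of the Arabidopsis clock, with a mean of 108 FPKM and overlapping groups in both imbibition comparisons. The mean of Zm00001d039492, an uncharacterised MYB-like gene, was 69.2 FPKM. Of these neighbours, MYB-transcription factor 133 and MYB-related-transcription factor 40 overlapped in KN5585_0h and did not overlap in ereb92_0h, while Zm00001d041960 and Zm00001d039492 overlapped in ereb92_0h and did not in KN5585_0h. In ereb92_6h, 4 further genes of the top 10 reached the range of these leading members, namely G2-like-transcription factor 44 and MYB-transcription factors 112, 139 and 153, all described below.

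**Figure D1:**
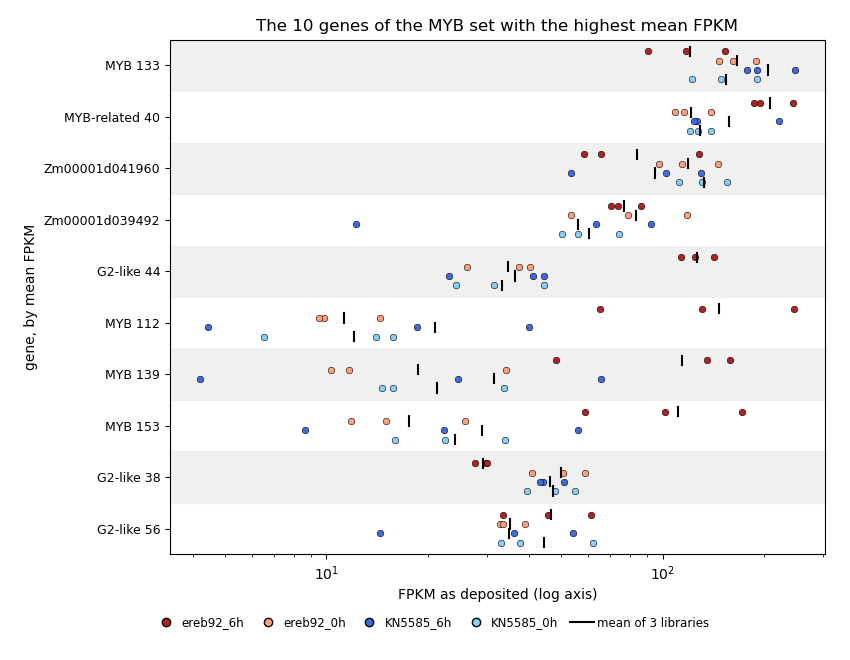
Deposited FPKM on a log axis of the 10 members with the highest means, with 1 point per library, 4 groups per gene and a line at the mean of 3 libraries; "-transcription factor" is left out of the gene names. G2-like 44 and MYB 112, 139 and 153 have their ereb92_6h points to the right of their dry-seed points, while G2-like 38 has its ereb92_6h points, between 27.6 and 30.0 FPKM, to the left of all others.

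The first comparison set ereb92_6h against ereb92_0h and asked which members change when mutant seeds take up water. A member was called when its Benjamini-Hochberg adjusted p, over all genes tested, was below 0.05 and its change was at least 2-fold. Of the 225 members, 150 passed the filter on low counts and 20 were called higher (13.3%), beside 5.87% of the 23575 genes tested. No member was called lower by edgeR, beside 0.106% of all genes, and 0 members passed an unadjusted p below 0.05 with a fold of at least 2 in that direction, while 27 did so among the higher ones, beside 0.878% and 11.0% of all genes. DESeq2 called 25 members higher (13.1%), beside 7.21% of all genes, and 0 lower. The median log2 fold change was 0.13 over the 150 members and -0.02 over all genes tested. All ereb92_6h libraries were above all ereb92_0h libraries in 32 members (21.3%) and below them in 7, beside 14.7% and 10.1% of all genes. Because a gene can pass the filter through the group in which it is high, as 5 of the 20 called members did, the fit without a filter is given too: it called 22 of all 225 members (9.78%), beside 4.67% of all genes.

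The calls were also counted by class, beside the 5.87% of all genes tested. The MYB class had 13 of its 60 tested members higher (21.7%), with a median log2 fold change of 0.60. Being set by gene name, this class holds R2R3 regulators but also 3-repeat proteins such as MYB-transcription factor 15. The G2-like and ARR-B class had 3 of 19 higher (15.8%) and a median of 0.36. The MYB-related class had 3 of 56 higher (5.36%) and a median of 0.02. The genes with other names had 1 of 15 higher (6.67%) and a median of -0.20. The shares of these last classes were close to that of all genes. The difference between classes was not tested. In levels, the 102 MYB genes together had 1510, 1215 and 847 CPM in ereb92_6h, against 587, 714 and 582 CPM in ereb92_0h, 595, 668 and 853 CPM in KN5585_6h and 649, 547 and 543 CPM in KN5585_0h. Replicate 3 of ereb92_6h and replicate 3 of KN5585_6h were therefore alike in this sum, while the other ereb92_6h libraries lay above every other library. The MYB-related genes summed to between 1708 and 1926 CPM in ereb92_6h, between 1485 and 1596 CPM in ereb92_0h, between 1500 and 1730 CPM in KN5585_6h, which overlaps ereb92_6h, and between 1512 and 1580 CPM in KN5585_0h. The G2-like and ARR-B genes summed to between 412 and 474 CPM in ereb92_6h and between 250 and 334 CPM in the other 9 libraries. The genes with other names summed to between 356 and 414 CPM in ereb92_6h, below all ereb92_0h libraries at between 432 and 486 CPM, and between 325 and 455 CPM in the KN5585 libraries.

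**Figure D2:**
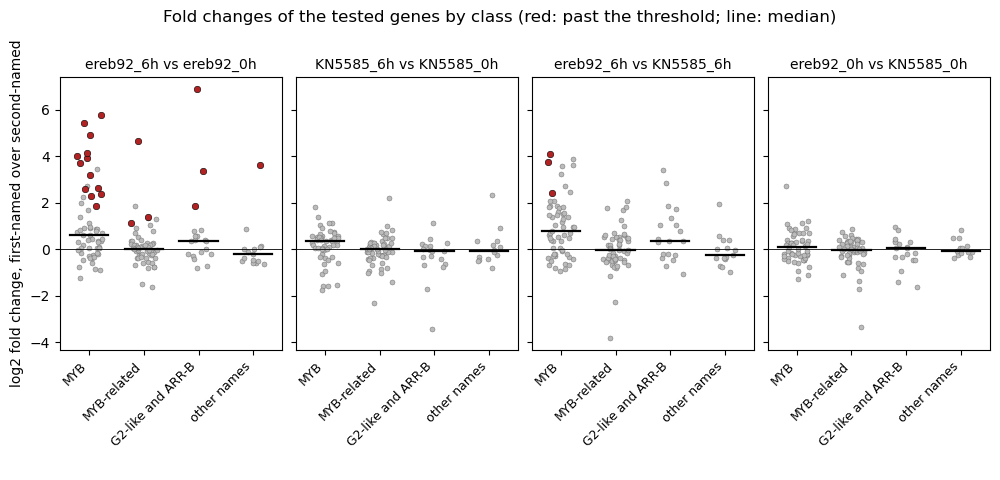
Log2 fold change of each tested member by class in the 4 comparisons, with the first-named group over the second; each point is a gene, red points are called, lines are medians, and MYB-transcription factor 29 stands at its lower bound in the first panel. Red points are seen in ereb92_6h vs ereb92_0h (20 genes) and ereb92_6h vs KN5585_6h (3 genes), most of them in the MYB class.

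**Figure D3:**
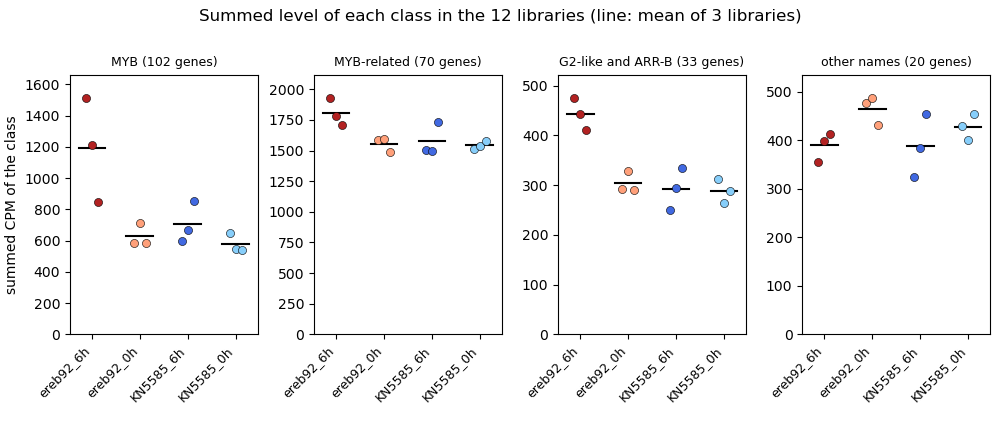
Summed CPM of the members of each class in the 12 libraries, on axes that start at 0, with 1 point per library in the order of replicates 1 to 3 and a line at the mean. The MYB class reaches between 847 and 1510 CPM in ereb92_6h, against between 543 and 853 CPM elsewhere.

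The 20 called members were summed to describe how they vary between libraries. Together they had 1255, 872 and 675 CPM in ereb92_6h, against 163, 212 and 154 CPM in ereb92_0h, 97.5, 186 and 327 CPM in KN5585_6h and 143, 187 and 174 CPM in KN5585_0h. The remaining 205 members summed to between 2705 and 3011 CPM in ereb92_6h and between 2563 and 3045 CPM in the other libraries, ranges that overlap. All ereb92_6h libraries lay above all ereb92_0h libraries in each of the 20, which the calls make likely, beside 14.7% of all genes tested. In 17 of the 20 every ereb92_6h library was above all other 9 libraries, beside 8.12% of all genes tested. The choice of the genes contributes to this count. The median log2 fold change of the 20 was 3.49, and the 19 with counts in both groups ranged between 1.14 and 6.88. They lay on 10 chromosomes, with at most 4 on a single one.

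**Figure D4:**
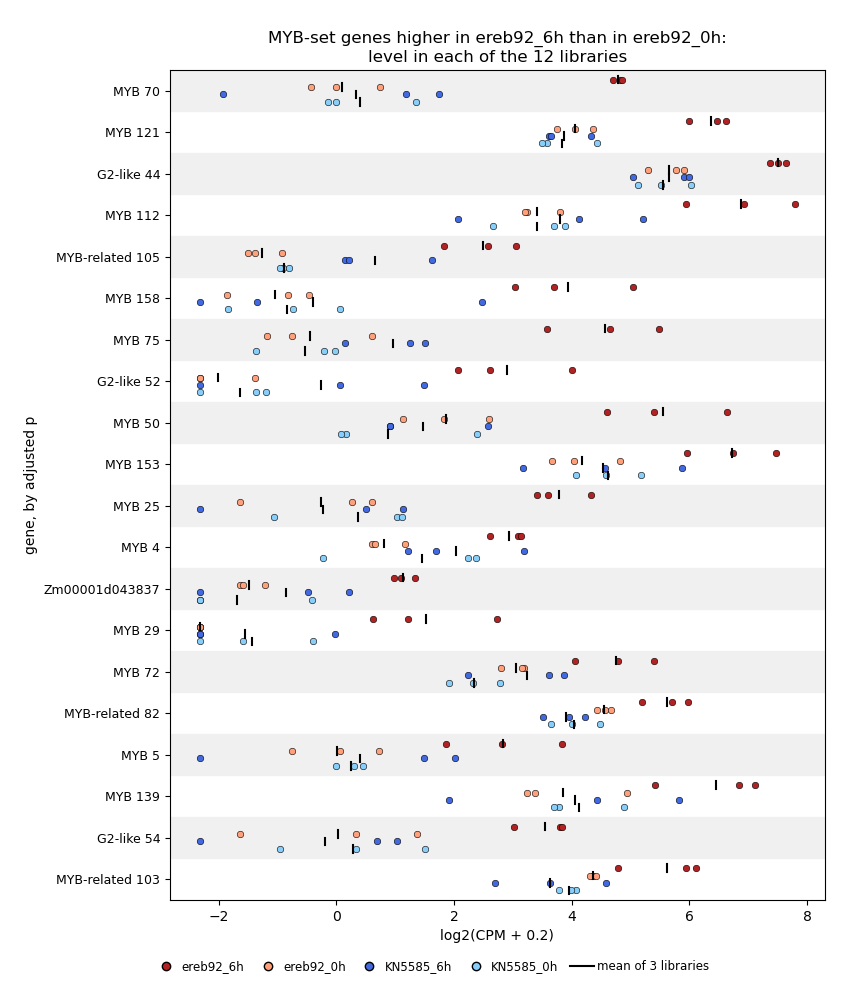
Level of the 20 called members in each of the 12 libraries as log2(CPM + 0.2), ordered by adjusted p from the top, with the groups in the same order within each gene and a line at the mean of 3 libraries. The ereb92_6h points lie to the right of all others in 17 of the 20 genes, beside 8.12% of all genes tested.

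The lowest adjusted p belonged to MYB-transcription factor 70 (Zm00001d022227, chromosome 7, 173165811 to 173167796 of B73 RefGen_v4), described as fused leaves1, a maize R2R3 regulator of cuticle deposition and organ separation in the embryo and seedling. It had 28.0, 28.7 and 25.9 CPM in ereb92_6h, against 0.544, 1.47 and 0.790 CPM in ereb92_0h, 2.07, 0.0645 and 3.15 CPM in KN5585_6h and 2.35, 0.794 and 0.705 CPM in KN5585_0h. The ereb92_6h libraries agreed closely with each other and lay far above all others. The log2 fold change was 4.92 in ereb92_6h vs ereb92_0h (adjusted p = 6.46e-04, edgeR's quasi-likelihood test, SE 0.397).

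Of 4 members described as MYB44, which in Arabidopsis takes part in abscisic acid responses and stomatal closure, 3 were called. Here and below, shared descriptions were picked out after the calls were known, beside 13.3% of all tested members. The description with the most tested members, a putative MYB DNA-binding domain protein, had 2 of 24 called. The 7 tested members described as duplicated homeodomain-like proteins had 0 called. MYB-transcription factor 50 (Zm00001d015614, chromosome 5, 101152012 to 101152926) had 99.2, 42.2 and 24.2 CPM in ereb92_6h, against 2.0, 5.87 and 3.36 CPM in ereb92_0h, 1.68, 1.68 and 5.77 CPM in KN5585_6h and 5.07, 0.926 and 0.861 CPM in KN5585_0h. All ereb92_6h libraries were higher than the other 9, with a wide spread among themselves, and the log2 fold change was 3.93 (adjusted p = 0.00791 by edgeR, SE 0.618). MYB-transcription factor 158 (Zm00001d036768) had 32.8, 12.8 and 8.0 CPM in ereb92_6h, against 0.363, 0.0773 and 0.527 CPM in ereb92_0h, 0, 0.193 and 5.33 CPM in KN5585_6h and 0.844, 0.397 and 0.0783 CPM in KN5585_0h. Among the wild-type libraries only replicate 3 of KN5585_6h came near the mutant level, and the log2 fold change in ereb92_6h vs ereb92_0h was 5.77 (adjusted p = 0.00374 by edgeR, SE 0.776). MYB-transcription factor 139 (Zm00001d005300) was the most abundant of the 4, with 115, 138 and 42.3 CPM in ereb92_6h, against 10.2, 30.6 and 9.21 CPM in ereb92_0h, 3.55, 21.4 and 56.1 CPM in KN5585_6h and 13.5, 29.4 and 12.8 CPM in KN5585_0h. Here ereb92_6h and KN5585_6h overlapped, and the log2 fold change against ereb92_0h was 2.59 (adjusted p = 0.0365 by edgeR, SE 0.582). The remaining gene, MYB-transcription factor 93 (Zm00001d037998), had 135, 80 and 56 counts in ereb92_6h, against 95, 66 and 53 counts in ereb92_0h, and its log2 fold change of 0.37 did not pass.

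Both members described as MYB112, which in Arabidopsis promotes anthocyanin formation under salt and strong light, were called. MYB-transcription factor 75 (Zm00001d028930, chromosome 1, 51839504 to 51841800) had 44.4, 24.9 and 11.8 CPM in ereb92_6h, against 0.242, 1.31 and 0.395 CPM in ereb92_0h, 2.65, 0.902 and 2.18 CPM in KN5585_6h and 0.188, 0.661 and 0.783 CPM in KN5585_0h. The groups at 6 HAI did not overlap, and the log2 fold change against ereb92_0h was 5.45 (adjusted p = 0.004 by edgeR, SE 0.741). MYB-transcription factor 29 (Zm00001d047579) had 147 counts over the ereb92_6h libraries, against 0 in every ereb92_0h library, which makes it at least 16.2-fold higher with 3 counts per library as the floor (adjusted p = 0.018 by edgeR). How reads shared by near-identical copies were assigned is not given in the sources used here, so the values of such related genes carry that uncertainty.

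MYB-transcription factor 121 (Zm00001d032694, chromosome 1, 234842943 to 234845229) was described as MYB15, known in Arabidopsis from cold responses and lignin synthesis. It had 97.9, 88.9 and 63.7 CPM in ereb92_6h, against 16.5, 20.2 and 13.3 CPM in ereb92_0h, 12.1, 12.3 and 19.9 CPM in KN5585_6h and 11.8, 21.4 and 11.0 CPM in KN5585_0h. The last 3 groups shared a level and only ereb92_6h lay above it, with a log2 fold change of 2.35 (adjusted p = 0.00181 by edgeR, SE 0.263). The other 2 members described as MYB15 were tested and not called, and all 3 had positive fold changes, the lowest at 0.15.

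Among the abundant members, MYB-transcription factor 112 (Zm00001d046632), described as the wheat gene TaMYB1, had 221, 121 and 61.2 CPM in ereb92_6h, against 9.20, 9.04 and 13.8 CPM in ereb92_0h, 4.0, 17.2 and 36.7 CPM in KN5585_6h and 12.8, 14.6 and 6.11 CPM in KN5585_0h. Its groups at 6 HAI did not overlap, yet each spanned a wide range, and the log2 fold change in ereb92_6h vs ereb92_0h was 3.70 (adjusted p = 0.00333 by edgeR, SE 0.484). MYB-transcription factor 153 (Zm00001d019712), described as a protein that binds a sucrose-responsive element, had 176, 107 and 62.4 CPM in ereb92_6h, against 12.5, 28.0 and 16.3 CPM in ereb92_0h, 8.85, 23.4 and 58.3 CPM in KN5585_6h and 16.6, 23.7 and 36.1 CPM in KN5585_0h. Its lowest ereb92_6h library was only just above its highest KN5585_6h library, and the log2 fold change against ereb92_0h was 2.64 (adjusted p = 0.0113 by edgeR, SE 0.450).

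The G2-like and ARR-B class holds proteins with a single MYB-like domain, among them the phosphate-starvation regulators and the type-B response regulators of cytokinin signalling. G2-like-transcription factor 44 (Zm00001d034160), described only as a DNA-binding protein, had 200, 165 and 182 CPM in ereb92_6h, against 54.6, 60.2 and 38.9 CPM in ereb92_0h, 32.7, 59.7 and 63.5 CPM in KN5585_6h and 34.7, 45.5 and 65.0 CPM in KN5585_0h. The ereb92_6h libraries were tightly grouped above the other 9, with a log2 fold change of 1.86 (adjusted p = 0.00289 by edgeR, SE 0.234). G2-like-transcription factor 52 (Zm00001d026542), described as PHL5 of the phosphate-starvation group, had 399 counts over ereb92_6h, against 3 over ereb92_0h, a ratio of 132 with an exact 95% interval between 44.9 and 644 that covers counting error only (adjusted p = 0.00638 by edgeR). G2-like-transcription factor 54 (Zm00001d042892), described as response regulator 20, had 13.8, 14.0 and 7.93 CPM in ereb92_6h, against 0.121, 2.39 and 1.05 CPM in ereb92_0h, and was called with a log2 fold change of 3.37 (adjusted p = 0.045 by edgeR, SE 0.797).

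The 3 called MYB-related genes included both members described as bromodomain proteins, which bind acetylated lysines of histones. MYB-related-transcription factor 82 (Zm00001d020947) had 51.7, 36.5 and 63.0 CPM in ereb92_6h, against 23.4, 21.3 and 25.1 CPM in ereb92_0h, 15.2, 11.2 and 18.6 CPM in KN5585_6h and 15.8, 22.1 and 12.3 CPM in KN5585_0h. MYB-related-transcription factor 103 (Zm00001d031454) had 68.7, 27.5 and 61.6 CPM in ereb92_6h, against 20.4, 21.2 and 19.6 CPM in ereb92_0h, 6.26, 12.2 and 23.7 CPM in KN5585_6h and 16.6, 15.7 and 13.5 CPM in KN5585_0h. Both genes had all ereb92_6h libraries above the other 9, with the smallest changes of the 20. Their log2 fold changes were 1.14 (SE 0.242) and 1.40 (SE 0.336), with adjusted p of 0.0286 and 0.048 by edgeR, and in the fit that blocks on replicate number MYB-related-transcription factor 103 missed the threshold (adjusted p = 0.0544). MYB-related-transcription factor 105 (Zm00001d003496), which has no description, had 8.12, 5.80 and 3.37 CPM in ereb92_6h, against 0.181, 0.155 and 0.329 CPM in ereb92_0h, and was called with a log2 fold change of 4.68 (adjusted p = 0.00334 by edgeR, SE 0.614).

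The remaining called genes were expressed at low to moderate level. MYB-transcription factor 25 (Zm00001d010201), described as the repressor MYB6, had 20.0, 11.9 and 10.5 CPM in ereb92_6h, against 0.121, 1.0 and 1.32 CPM in ereb92_0h (log2 fold change 4.16). Zm00001d043837, described as MYB36, which directs Casparian strip formation in the Arabidopsis root endodermis, had 1.77, 1.93 and 2.32 CPM in ereb92_6h, against 0.121, 0.232 and 0.132 CPM in ereb92_0h (log2 fold change 3.61). MYB-transcription factor 72 (Zm00001d003064), an R2R3 protein, had 42.2, 16.3 and 27.4 CPM in ereb92_6h, against 8.95, 6.72 and 8.69 CPM in ereb92_0h (log2 fold change 1.85). None of these 3 genes overlapped between the groups. MYB-transcription factor 4 (Zm00001d048647) and MYB-transcription factor 5 (Zm00001d026203), with no role in their descriptions, had log2 fold changes of 2.27 and 3.19. Over these 5 genes the adjusted p of edgeR's quasi-likelihood test lay between 0.0117 and 0.0309.

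The calls differed in how far they rested on single libraries. Leaving out each of the 6 libraries in turn left between 11 and 18 members higher, beside between 2.97% and 6.37% of all genes. Of the 20 genes, 10 were called in all 6 of these fits, namely MYB-transcription factors 70, 121, 112, 158, 75, 50 and 25, G2-like-transcription factors 44 and 52 and MYB-related-transcription factor 105. Zm00001d043837 was called in none of them, with adjusted p between 0.0541 and 0.0931 by edgeR, and the other 9 were called in between 1 and 5. The count was lowest at 11 without replicate 3 of ereb92_0h and 12 without replicate 1 of ereb92_6h. Requiring 10 counts in every sample left 114 members and 11 calls (9.65%), beside 5.83% of all genes, and 1 fit on all 12 samples gave 10 calls among 162 members (6.17%), beside 3.11%.

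Among the members with a negative change, none of which was called, the lowest unadjusted p belonged to G2-like-transcription factor 38 (Zm00001d032384), described as PHR1-LIKE 3 of the phosphate-starvation group, with 571, 694 and 627 counts in ereb92_6h, against 990, 977 and 1331 in ereb92_0h, 964, 974 and 838 in KN5585_6h and 839, 1050 and 738 in KN5585_0h. Every ereb92_6h library was below the other 9 libraries in counts, and the log2 fold change was -0.79 in ereb92_6h vs ereb92_0h (adjusted p = 0.0592 by edgeR) and -0.72 in ereb92_6h vs KN5585_6h (adjusted p = 0.192 by edgeR). Next came single myb histone6 (Zm00001d013694), a telomere-binding protein, at -0.60 (adjusted p = 0.196 by edgeR).

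The second comparison set KN5585_6h against KN5585_0h and asked for the same change in the wild type. Of 140 members tested, edgeR called 0 higher and 0 lower, beside 0.00449% and 0.0% of 22282 genes. DESeq2 called 0 of 150 members in either direction, beside 0.201% of all genes called higher. With an unadjusted p below 0.05 and a fold of at least 2, 1 member was higher and 1 was lower, beside 1.03% and 1.23% of all genes. The median log2 fold change was 0.08 over the members and -0.02 over all genes. All libraries of KN5585_6h were above all libraries of KN5585_0h in 10 members (7.14%) and below them in 9, beside 4.58% and 5.91% of all genes. The genes with the lowest unadjusted p were Zm00001d012404, a 3-repeat MYB with 506, 314 and 212 counts in KN5585_6h, against 122, 172 and 195 in KN5585_0h (log2 fold change 0.93), and Zm00001d052590, a SWI3C-type subunit of the SWI/SNF chromatin-remodelling complex with 30, 20 and 18 counts, against 3, 4 and 5 (2.34). In the other direction they were G2-like-transcription factor 7 (Zm00001d020020, -1.70) and *golden plant2* (Zm00001d039260, -3.43), the maize regulator of chloroplast development, which had 0, 0 and 4 counts in KN5585_6h, against 17, 13 and 17 in KN5585_0h. None passed (adjusted p = 0.999 by edgeR for each of these 4 genes).

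The 20 genes called in the mutant were set beside their values in the wild type. Of the 16 tested in KN5585_6h vs KN5585_0h, 12 had a positive log2 fold change, with a median of 0.45 and a range between -0.34 and 2.20, and 0 were called or passed an unadjusted p below 0.05 with a fold of at least 2. The largest was that of MYB-related-transcription factor 105, followed by MYB-transcription factor 75 at 1.81. The wild-type libraries at 6 HAI did not behave as a homogeneous group in these genes. Replicate 3 was the highest of the 3 libraries in 16 of the 20 genes, beside 37.2% of all genes tested, and stood above every KN5585_0h library in 15 of 20, beside 25.0%. Replicate 1, the library with few detected genes, was the lowest in 15 of 20, beside 10578 of 23203 genes tested. It was below every KN5585_0h library in 9 (beside 37.2% of all genes) and at 0 counts in 6 (beside 2974 of 23203). Leaving out any single library left 0 members called in this comparison. The common dispersion, the squared relative spread between replicates over all genes, was 0.298 in KN5585_6h vs KN5585_0h and 0.184 in ereb92_6h vs ereb92_0h.

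**Figure D5:**
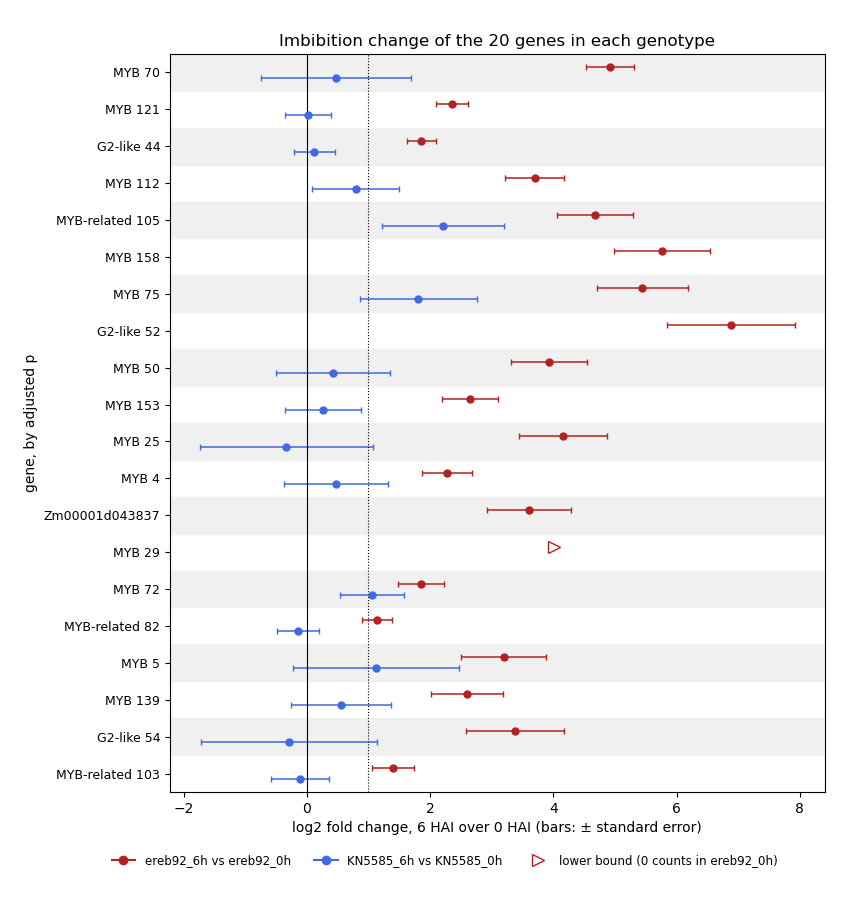
Log2 fold change at 6 HAI over 0 HAI, with standard errors, of the 20 genes in each genotype; genes without a KN5585 point were not tested there, the dotted line marks a 2-fold change and the open triangle marks a lower bound. The mutant points lie between 1.14 and 6.88, and the wild-type points between -0.34 and 2.20 with wider error bars.

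In the mutant at 6 HAI the libraries also differed among themselves. Replicate 1 was the highest of the 3 ereb92_6h libraries in 13 of the 20 genes, beside 37.1% of all genes tested. Replicate 3 was the lowest in 14, beside 8741 of 23574 genes tested. *ZmEREB92* had its highest count in replicate 1 and its lowest in replicate 3 as well, and the part of this order in the results was not tested.

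The third comparison set ereb92_6h against KN5585_6h and asked how the genotypes differ after imbibition. Of 148 members tested, 3 were called higher (2.03%) and 0 lower by edgeR, beside 0.815% and 0.143% of 23066 genes. With an unadjusted p below 0.05 and a fold of at least 2, 19 were higher and 3 lower, beside 8.32% and 2.99%. The median log2 fold change was 0.32 over the members and -0.001 over all genes. By class it was 0.80 in the 59 tested MYB genes, -0.05 in the 55 MYB-related genes, 0.35 in the 19 G2-like and ARR-B genes and -0.23 in the 15 genes with other names. The members' median depended on the fit. It was 0.06 without replicate 1 of KN5585_6h (0.005 over all genes) and 0.43 without replicate 3 (0.11 over all genes). With 10 counts required in every sample it was 0.02 (-0.06 over all genes). All ereb92_6h libraries were above all KN5585_6h libraries in 32 members (21.6%) and below them in 11, beside 15.9% and 8.67% of all genes.

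The 3 called genes belonged to the MYB class and were also called against ereb92_0h. MYB-transcription factor 121 had a log2 fold change of 2.42 (adjusted p = 0.0242, SE 0.319), MYB-transcription factor 75 of 3.74 (adjusted p = 0.0429, SE 0.621) and MYB-transcription factor 50 of 4.11 (adjusted p = 0.0481, SE 0.719), all by edgeR's quasi-likelihood test. Their values per library are given above, and none overlapped between the genotypes. G2-like-transcription factor 44 came next at 1.73 (adjusted p = 0.0566 by edgeR). All 20 genes called in ereb92_6h vs ereb92_0h had positive values here, between 0.62 and 4.11 with a median of 2.19, and 14 passed an unadjusted p below 0.05 with a fold of at least 2; the libraries of ereb92_6h enter both comparisons, so the agreement of sign is not independent. The count of calls depended on single libraries, with between 0 and 5 calls when 1 library was left out. It was 0 without replicate 2 of KN5585_6h or without replicate 1 or 2 of ereb92_6h, beside 0.0%, 0.0207% and 0.0% of all genes. It was 2 without replicate 1 of KN5585_6h (beside 0.583%) and 5 without replicate 3 of KN5585_6h (beside 2.04%). In these 6 fits MYB-transcription factor 121 was called in 3, and MYB-transcription factors 75 and 50 in 1 each. In the fit that blocks on replicate number none of the 3 passed (adjusted p = 0.189, 0.195 and 0.254 by edgeR, in that order). All 3 passed in DESeq2. DESeq2 called 12 members higher (6.45%), beside 4.93% of all genes, and 1 lower.

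The member called lower by DESeq2 was MYB-related-transcription factor 51 (Zm00001d018465), which has no description. It had 24, 5 and 1 counts in ereb92_6h, against 38, 10 and 53 in ereb92_0h, 250, 83 and 66 in KN5585_6h and 60, 36 and 76 in KN5585_0h. The groups at 6 HAI did not overlap, and the log2 fold change of -3.82 did not pass in edgeR (adjusted p = 0.138).

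The fourth comparison set ereb92_0h against KN5585_0h and asked whether the MYB set differed in the dry seed. Of 143 members tested, edgeR called 0 higher and 0 lower, beside 0.168% and 0.0973% of 22610 genes. With an unadjusted p below 0.05 and a fold of at least 2, 1 was higher and 3 were lower, beside 2.68% and 3.26%. DESeq2 called 1 of 176 members higher (0.568%), beside 1.11% of all genes, and 1 lower. The median log2 fold change was -0.01 over the members and over all genes. The libraries did not overlap in 14 members that were higher (9.79%) and 5 that were lower, beside 9.26% and 7.5% of all genes. The lowest unadjusted p among the positive changes belonged to MYB-transcription factor 131 (Zm00001d039496), an R2R3 protein with 56, 47 and 33 counts in ereb92_0h, against 5, 12 and 1 in KN5585_0h. The groups did not overlap, and the log2 fold change of 2.72 passed in DESeq2 (adjusted p = 0.0456) and not in edgeR (adjusted p = 0.277). After imbibition the gene had 33, 24 and 0 counts in ereb92_6h, against 0, 22 and 7 in KN5585_6h. Zm00001d014029, described as MYB15, had 342, 222 and 329 counts in ereb92_0h, against 129, 170 and 125 in KN5585_0h, without overlap and with a log2 fold change of 0.82 that did not pass. Among the negative changes, MYB-related-transcription factor 55 (Zm00001d012285) had 126, 63 and 77 counts, against 236, 203 and 117 (log2 fold change -1.36), and MYB-related-transcription factor 43 (Zm00001d029875) had a log2 fold change of -0.65. The 20 genes called in the imbibed mutant had a median of -0.09 in the 15 that were tested between dry seeds, with 7 positive.

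Whether imbibition acts differently in the genotypes was tested as the change in ereb92 minus the change in KN5585, in a fit on all 12 libraries. Of 162 members tested, edgeR called 0 in either direction, beside 0.0313% and 0.0% of 25567 genes. With an unadjusted p below 0.05 and a difference of at least 2-fold, 15 members were higher and 1 was lower, beside 5.86% and 0.86% of all genes, and DESeq2 called 4 higher (2.2%), beside 1.3% of all genes, and 0 lower. The median difference in log2 was 0.19 over the members and 0.08 over all genes. MYB-transcription factor 121 came nearest at 2.34 (adjusted p = 0.095 by edgeR, SE 0.449), followed by G2-like-transcription factor 44 at 1.74 (adjusted p = 0.201 by edgeR). Both genes passed in DESeq2, at 2.35 (adjusted p = 0.00133) and 1.75 (adjusted p = 0.0205). Downward, the lowest unadjusted p belonged to Zm00001d012404 at -1.12 and G2-like-transcription factor 38 at -0.75 (adjusted p = 0.513 by edgeR for each). All 20 genes called in ereb92_6h vs ereb92_0h were positive, the lowest at 0.79 and the median at 2.43, a direction to which their choice contributes. The stronger change of these genes in the mutant was therefore not shown at the threshold by edgeR's test of the difference itself. For MYB-transcription factor 121 and G2-like-transcription factor 44 the tools differed.

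The clock members, described as REVEILLE or as circadian clock associated1, comprised 9 genes, all of them tested in every comparison. None was called, and their median log2 fold change was 0.04 in ereb92_6h vs ereb92_0h and 0.25 in KN5585_6h vs KN5585_0h. In ereb92_6h vs KN5585_6h, 8 of 9 were negative with a median of -0.47, beside 11550 of 23066 genes tested. MYB-related-transcription factor 111 (Zm00001d026017), a REVEILLE 1, was the exception at 0.98 and had 53, 36 and 67 counts in ereb92_6h, against 32, 21 and 12 in ereb92_0h, 24, 2 and 39 in KN5585_6h and 9, 18 and 13 in KN5585_0h. *circadian clock associated1* itself (Zm00001d049543) had 55, 80 and 34 counts in ereb92_6h, against 82, 53 and 98 in ereb92_0h, with overlapping groups. The 2 members described as LUX are not among these 9. In ereb92_6h vs KN5585_6h they had log2 fold changes of -0.23 (Zm00001d041960) and 0.35 (G2-like-transcription factor 56, Zm00001d011785), and neither was called.

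The members described by Arabidopsis GAMYB-type names (MYB81, MYB101 and MYB104) numbered 6, and 0 were called in any comparison. Their median log2 fold change in ereb92_6h vs ereb92_0h was 0.40, with 5 of 6 positive. MYB-transcription factor 138 (Zm00001d043131), described as MYB81, had 1141, 938 and 275 counts in ereb92_6h, against 404, 285 and 237 in ereb92_0h, 320, 280 and 211 in KN5585_6h and 245, 193 and 191 in KN5585_0h. Replicates 1 and 2 of ereb92_6h stood far above the rest and replicate 3 lay among the other groups, and the log2 fold change of 1.36 did not pass (adjusted p = 0.162 by edgeR). MYB-transcription factor 74 (Zm00001d012544), also described as MYB81, had 301, 256 and 223 counts in ereb92_6h, against 158, 104 and 167 in ereb92_0h, 153, 53 and 101 in KN5585_6h and 155, 59 and 43 in KN5585_0h. Its ereb92_6h libraries lay above the other 9, at a log2 fold change of 0.90 (adjusted p = 0.107 by edgeR). MYB-transcription factors 115, 59, 58 and 129 ranged between -0.35 and 0.45.

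Of 4 members described as 3-repeat MYB proteins, which regulate genes of mitosis, 2 had enough counts to be tested and none was called. Besides Zm00001d012404, MYB-transcription factor 15 (Zm00001d042910) had 206, 215 and 116 counts in ereb92_6h, against 283, 150 and 216 in ereb92_0h (log2 fold change -0.24). MYB-related-transcription factor 74 (Zm00001d016000) and MYB-transcription factor 117 (Zm00001d039306) had at most 20 counts in any library. The 4 telomere-binding members were all negative in ereb92_6h vs KN5585_6h, between -1.0 and -0.04, with 0 called. Of all genes tested there, 11550 of 23066 were negative. The pigment regulator *colored aleurone1* (Zm00001d044975), which switches on anthocyanin synthesis in the aleurone, had between 0 and 52 counts in a library and was too low for the pairwise tests.

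Genes of processes in which MYB proteins are known to act were counted from lists built from words in the deposited descriptions. Whether any member acts on or with a listed gene was not tested. Among enzymes and other genes of flavonoid and anthocyanin synthesis, 3 of 24 tested were higher in ereb92_6h vs ereb92_0h (12.5%), beside 5.87% of all genes, 0 were lower, and the median log2 fold change was -0.13. They were Zm00001d042739, an anthocyanidin glucosyltransferase with 4592, 2322 and 2670 counts in ereb92_6h, against 705, 504 and 640 in ereb92_0h (log2 fold change 2.42, adjusted p = 0.00332 by edgeR), Zm00001d001927, a flavonol synthase or flavanone hydroxylase with 243, 371 and 59 counts, against 8, 7 and 4 (5.10, adjusted p = 0.00472 by edgeR), and a second anthocyanidin glucosyltransferase, Zm00001d022467 (2.58, adjusted p = 0.0279 by edgeR). The groups did not overlap in any of the 3 genes. In the same comparison 0 of 4 alpha-amylase genes were called, and Zm00001d031794, alpha-amylase 1, had 280, 817 and 227 counts in ereb92_6h, against 135, 183 and 129 in ereb92_0h (1.51, adjusted p = 0.121 by edgeR). Among clock genes of other families 1 of 15 was called (6.67%), close to that share of all genes, the blue-light receptor Adagio protein 3 (Zm00001d053091) with 2423, 1538 and 991 counts in ereb92_6h, against 708, 501 and 385 in ereb92_0h (1.66, adjusted p = 0.0327 by edgeR). The single B-type cyclin that could be tested and the WD40 anthocyanin partner *pale aleurone color1* (Zm00001d017616, log2 fold change 0.64) were not called.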

How the data were processed

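Poly(A)-selected RNA libraries of whole seeds were sequenced in 12 samples (4 groups of 3). The authors aligned reads to B73 RefGen_V4 with Hisat2 v2.0.5 and deposited raw counts per gene from featureCounts v1.5.0-p3 and FPKM values made from them; strandedness and multiply mapped reads are not given in the sources used here. The deposited counts were tested with edgeR 4.0.16 (R 4.3.3; TMM scaling, filterByExpr, quasi-likelihood test, 6 samples per comparison, Benjamini-Hochberg adjustment over all genes tested), and DESeq2 1.42.0 served as the alternative. SE is the log2 fold change divided by the square root of F. CPM used TMM-scaled totals. Columns of the authors' own comparisons (group means, fold changes and p-values) were not used. The scripts were tested on simulated data. Replicates are labelled as separate samples, and the study describes them as biological replicates from independent experiments. Their origin from separate boxes of seeds is not stated, and p-values measure the spread between replicates.

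Genes named were all called members, the 10 highest by mean FPKM and the 2 lowest unadjusted p per direction and comparison. The clock, pigment, GAMYB-type and 3-repeat lists were named too, with up to 3 genes per list of process genes. Members and lists were chosen with earlier results of these data known; the words of the GAMYB-type, 3-repeat and B-cyclin lists were corrected after the descriptions were seen, and the flavonoid list holds homeobox genes named for an anthocyanin phenotype. A list for MYB proteins with an SHAQKYF motif matched 0 members. Same-numbered samples deviated together in ereb92_6h vs ereb92_0h (r = 0.389, 0.273 and 0.196), so they count as paired by the data there; the labels state no shared batch.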

Additional observations from a re-analysis of the deposited data

How the results depend on the processing

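No named gene with a call changed its direction under the alternatives tried (another scaling, filter, tool, sample set or replicate block, or 1 library left out). In ereb92_6h vs ereb92_0h the 20 members higher became 11 with 10 counts required in every sample and 10 with 1 fit on all samples, and lay between 11 and 18 when 1 library was left out. In ereb92_6h vs KN5585_6h the 3 members higher became 5 with library size alone, 9 without a filter, 5 with 10 counts in every sample, 8 with 1 fit on all samples and 12 in DESeq2, which also called 1 lower. The share of all genes called higher moved with them, to 1.98%, 2.12%, 1.9%, 2.94% and 4.93% in these fits. The count lay between 0 and 5 with 1 library left out, beside between 0.0% and 2.04% of all genes. In ereb92_0h vs KN5585_0h DESeq2 called 1 higher, beside 1.11% of all genes, and 1 lower. The test of the difference between imbibition changes gave 1 without a filter, 4 in DESeq2 and between 0 and 2 with 1 library left out. The shares of all genes called higher there were 0.26%, 1.3% and between 0.0% and 1.03%. The cause of these shifts was not tested. The members' median log2 fold change, close to 0, changed sign in KN5585_6h vs KN5585_0h (0.08) to -0.01 with the replicate block and -0.11 without replicate 3 of KN5585_6h. In ereb92_0h vs KN5585_0h (-0.01) it changed to 0.11 with library size alone, 0.03 with 10 counts in every sample, and 0.05, 0.03 and 0.04 without replicate 1 or 2 of KN5585_0h or replicate 1 of ereb92_0h. Scaling by library size alone shifted the median of all genes to 0.12 in KN5585_6h vs KN5585_0h and 0.13 in ereb92_6h vs KN5585_6h and in ereb92_0h vs KN5585_0h.

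With the replicate number as a block, ereb92_6h vs ereb92_0h kept 20 members higher, 19 of them shared, beside 6.46% of all genes. In ereb92_6h vs KN5585_6h the block left 0 members, beside 0.0% of all genes. Same-numbered samples did not deviate together in ereb92_6h vs KN5585_6h (mean r = -0.0802), in KN5585_6h vs KN5585_0h (-0.0203) or in ereb92_0h vs KN5585_0h (-0.119), so there the samples share only a number. The block changed no other count of calls. Depth limits the members with few counts: 75 of the 225 could not be tested in ereb92_6h vs ereb92_0h.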
